A study of Mus musculus with 4 samples.

Results

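The genes described here are 43 macrophage, general leukocyte, neutrophil and platelet genes, read in otocysts of E10.5 mouse embryos from which Tbx2 and Tbx3, genes of T-box transcription factors, had or had not been removed. They were chosen by name: every non-control probe on the array whose gene name was on the list was taken. Of the 43 names, 42 had a probe, giving 54 of the 39429 probes on the array. Of these 42 genes, 37 were bright enough to be tested, among 18408 genes or unnamed targets tested in all. They were read in 5 classes: 15 macrophage genes, 14 genes of leukocytes in general, 7 neutrophil granule genes, 5 calgranulin and stefin genes, and 2 platelet chemokine genes.

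The mutant embryos, named Tbx2/3cDKO, were Tbx2(fl/fl) and Tbx3(fl/fl) and carried Pax2-cre, a recombinase under Pax2 control that acts in the otic region. The controls were Tbx2(fl/?) and Tbx3(fl/?), carried no cre by their labels, and may have had 1 or 2 floxed copies of each gene. Both genotypes were of the NMRI strain, and the otocysts were dissected mechanically, with no sorting of cells. Each of 4 arrays received 1 mutant and 1 control RNA of the same sex, female for replicates 1 and 2 and male for replicates 3 and 4, with the dyes swapped within each sex. No label says whether an RNA came from 1 embryo or from a pool, and p-values therefore reflect the spread of these RNAs alone, part of which may be technical.

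The otocyst is the epithelial vesicle from which the inner ear develops. Macrophages reach the embryo's tissues early, from the yolk sac and later from the liver, and take up dying cells; they carry the colony-stimulating factor receptor Csf1r and make complement C1q. Immature neutrophils store proteases and myeloperoxidase in granules, and mature ones hold large amounts of the calgranulins S100a8 and S100a9. Platelets and their precursors, the megakaryocytes, store the chemokines Pf4 and Ppbp. None of these cells arises from the otic epithelium, and a dissected otocyst can also hold blood and vessels.

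Between 57.4% and 62.2% of the probes were well above background in the mutant RNAs and between 57.8% and 60.4% in the control RNAs. Precision is limited by the number of arrays, which is 4. The targeted gene Tbx3 fell on every array, with a log2 ratio of mutant over control of -3.43 ± 0.16 (SD, n = 4). The Tbx2 probe, with 0.06 ± 0.23, is no check of the deletion of Tbx2, since the deleted part is not stated. The sex labels held with exceptions on 2 arrays. Xist, the RNA of the inactive X chromosome, was above background in the male mutant RNA of replicate 4, at log2 levels of 7.56 and 7.74 with its 2 probes, but not in the control RNA of that array, at 6.62 and 6.47. The Y-linked gene Eif2s3y exceeded background in the mutant and control RNA of replicate 2, both labelled female, with a level of 6.82 for the mutant and of 7.02 for the control. Of the members, 27 were higher over all arrays, 24 without replicate 4 and 25 without replicate 2.

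Levels are log2 values of the normalized intensity of an RNA, and ratios are differences of these levels on 1 array. Detection was read first. A gene counted as detected in a genotype when 3 or 4 of the arrays had 1 of its probes well above background. Throughout, above background stands for well above background, so a gene that is not can still have some signal. In the mutant, 37 of 42 members were detected, and in the control 31 of 42. All 31 of the control were among the 37 of the mutant. The other 6, Stfa1, Stfa3, S100a8, S100a9, Camp and Ptprc, were above background on no control array, and they entered the test through the mutant alone. Over all genes tested, 129 (0.701%) were detected in the mutant and on no control array.

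At a limma adjusted p under 0.05, taken over all genes tested, 27 of the 37 members were higher in the mutant, 1 was lower and 9 did not pass. The same test called 13.5% of all genes higher and 10.1% lower. Among the 31 members detected in both genotypes, which did not depend on the mutant to enter the test, 22 were higher and 1 was lower, against 12.8% and 9.83% of all genes detected in both. Their median log2 ratio was 0.37, and that of all genes detected in both was 0. The 4 mutant levels all lay above the 4 control levels for 16 of these 31 members, against 12.6% of all genes detected in both. Of the 27 higher members, 12 reached 1.5-fold and 15 did not, and 3.35% of all genes tested were higher by 1.5-fold or more. The 27 include Stfa1, Stfa3, S100a8, S100a9 and Camp, which entered the test through the mutant alone. Of these, Stfa1, S100a8 and S100a9 are among the 12. All 28 called members had 1 sign on all 4 arrays, so in both dye orientations and in both sexes. The calls rest on these same ratios, so this agreement is no separate support for them. In whole tissue, more cells of a type and more RNA per cell cannot be told apart.

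**Figure D1:**
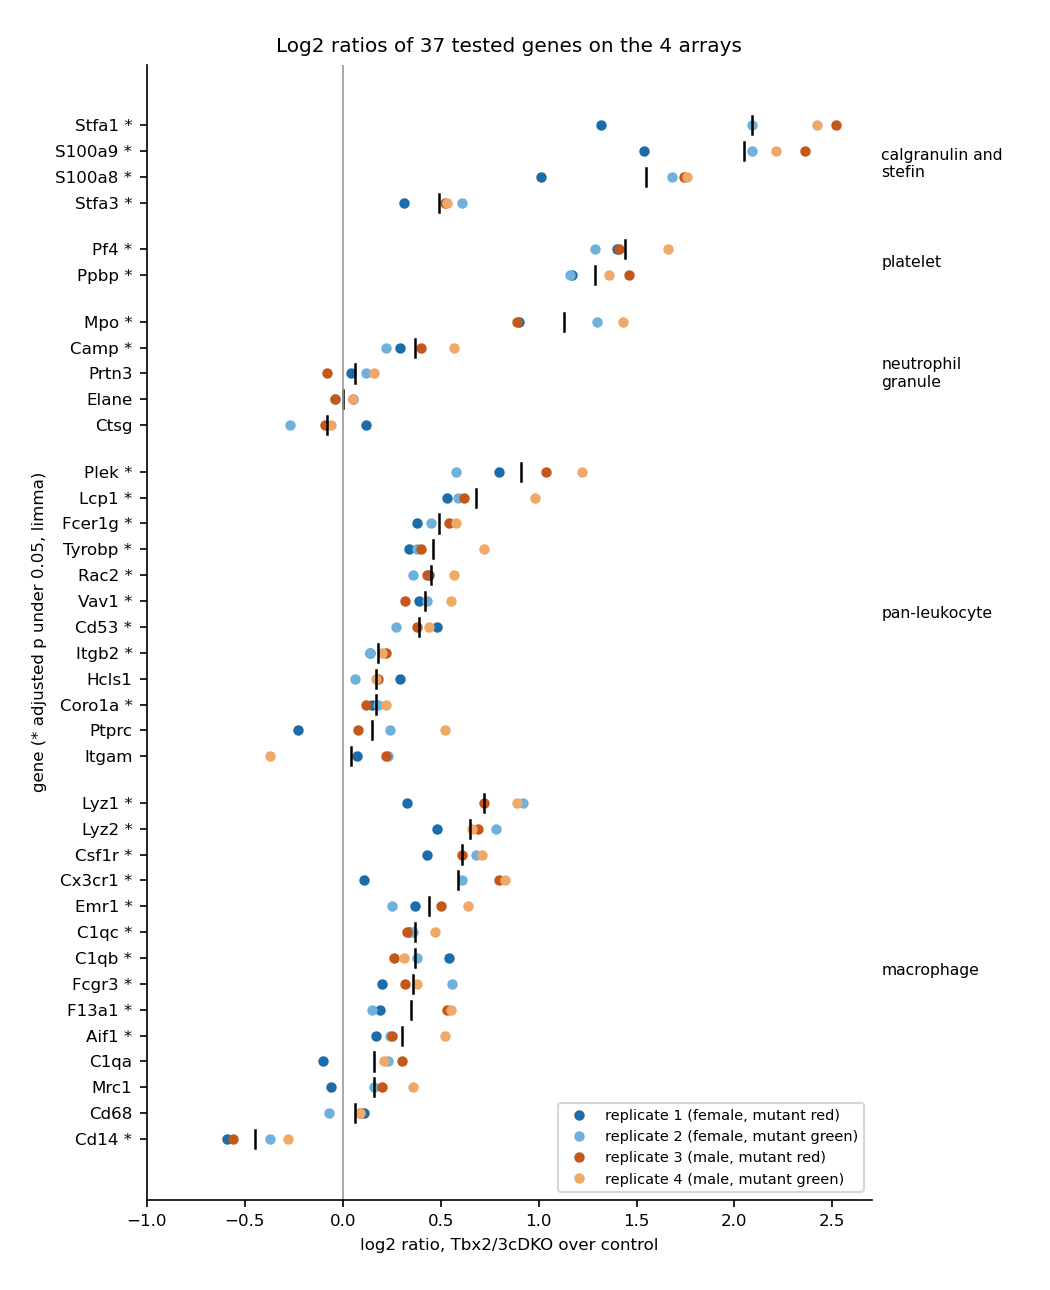
Log2 ratio of Tbx2/3cDKO over control (horizontal axis) for the 37 tested genes (vertical axis), grouped by class, with 1 point per array and a bar for the mean; a star marks an adjusted p under 0.05. The calgranulins, Stfa1, the platelet genes and Mpo lie farthest to the right, most macrophage and leukocyte genes lie between 0 and 1, and Cd14 lies to the left of 0 on all arrays.

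The calgranulins and stefins, genes that mature neutrophils are known for in mice, included the members with the largest folds: the lower bounds of S100a9 and Stfa1 exceeded the fold of every other member. S100a8 and S100a9 form a calcium-binding pair that fills the neutrophil cytoplasm, and the stefins are inhibitors of cathepsin proteases. All 4 that were tested were higher in the mutant, with a median log2 ratio of 1.80, and all 4 were well above background on no control array. They had to be higher to enter the test, so their fold changes are given as lower bounds. A bound sets the mean mutant level against the control, with each control array placed at its own level or at the dimmest signal well above background, whichever is higher. A fold given as at least some value is this bound on the mean. It makes no allowance for the spread between arrays, and single arrays can lie under it.

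S100a9 had log2 levels of 8.47, 9.14, 8.86 and 8.86 in the mutant RNAs of replicates 1 to 4, against 6.93, 7.05, 6.50 and 6.65 in the control RNAs. Each mutant RNA was far above each control RNA. The log2 ratio was 2.05 ± 0.36 (SD, n = 4 arrays; SE 0.12, limma adjusted p = 9.51e-05), which is at least 3.86-fold higher in the mutant. S100a8, its partner 22.7 kb away on chromosome 3, had levels of 7.70, 8.04, 7.99 and 8.01 in the mutant and 6.69, 6.36, 6.25 and 6.25 in the control. The mutant RNA of replicate 1 was the lowest and the control RNA of that array the highest, and the genotypes still did not overlap. The ratio was 1.55 ± 0.36 (adjusted p = 0.000187), at least 2.29-fold higher.

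Stfa1 had levels of 8.23, 8.58, 8.99 and 8.86 in the mutant and 6.91, 6.49, 6.47 and 6.43 in the control. Here too the gap was smallest on replicate 1, with a ratio of 1.32 against 2.09 to 2.52 on the others. The mean ratio was 2.09 ± 0.55 (SE 0.18, adjusted p = 0.000368), at least 3.65-fold higher. Stfa3 was much closer to background, with levels of 6.95, 6.99, 6.97 and 6.93 in the mutant and 6.63, 6.38, 6.45 and 6.40 in the control. Its mutant levels barely differed among themselves and all lay above the control ones, with a ratio of 0.49 ± 0.13 (adjusted p = 0.0012), at least 1.18-fold higher. Stfa2 was not tested, being above background on 1 mutant array and on no control array, and its ratios of 0.04, 0.37, 0.23 and 0.17 are those of a probe near background.

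The size of these shifts differed with the processing. In the scanner software's own ratios, which differ in both background removal and dye normalization, the log2 ratio was 4.56 for Stfa1, 4.26 for S100a9, 3.90 for S100a8 and 1.56 for Stfa3. Each stayed past the threshold in every setting tried in which it could be tested. The setting that needed a signal above background in both genotypes left these genes out, so it gives no result for them.

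The stefins belong to a tandem cluster of near-identical genes on chromosome 16, so a probe named for one may also bind transcripts of another. The stretches below are taken from the probe sequences in the files, 5′ to 3′, with the bases that differ within each pair in capitals; they show how close the probes of members and of their neighbours come. The first pair is from the probes of Stfa3 (chr16:36450693-36450752, mm9, minus strand) and of Cstdc5, a neighbouring stefin gene (chr16:36359525-36359584, minus strand).
Stfa3: actAacaaaaccaagACtgatgagctgacc
Cstdc5: actGacaaaaccaagGAtgatgagctgacc
The second pair is from another stretch of the Stfa3 probe and from that of Cstdc4 (chr16:36188043-36188102, plus strand).
Stfa3: GAaacttAaGggttaccagactaacaaaac
Cstdc4: AGaacttCaTggttaccagactaacaaaac
The third pair is from the probes of Stfa1 (chr16:36285398-36285457, plus strand) and Stfa2 (chr16:36404032-36404089, minus strand).
Stfa1: GaaagagatTcAgccatGaataaagaaATa
Stfa2: TaaagagatGcGgccatCaataaagaaGCa

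Aligned without gaps over their whole overlap, the Stfa3 and Cstdc5 probes matched at 35 of 41 bases (85.4%), and those of Stfa3 and Cstdc4 at 30 of 35 (85.7%), with a shared run of 22 bases. Those of Stfa1 and Stfa2 matched at 40 of 58 (69.0%). Those of Stfa1 and Cstdc5 matched at 18 of 37 (48.6%), with no shared run over 5 bases. The closest pair was Cstdc5 and Csta2, another stefin gene of the cluster, at 27 of 28 (96.4%) with a shared run of 25. Counts of matching bases do not show which transcripts bound, so which stefin gene gave each signal is uncertain.

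The neighbours Cstdc5 and Cstdc4 were higher in the mutant too, but both entered the test through the mutant alone. Their calls are therefore no separate support for those of the stefin members. Cstdc5, which is on the array under an older clone name, had levels of 8.63, 8.98, 9.31 and 9.16 in the mutant, above background on 4 arrays, and 7.23, 7.04, 6.78 and 6.59 in the control, above background on 2. Its ratio of 2.11 ± 0.55 (adjusted p = 0.000408) was, like that of Stfa1, smallest on replicate 1, and its levels did not overlap between the genotypes. Cstdc4 was above background on 3 mutant arrays and on no control array, with ratios of 0.12, 0.78, 0.95 and 0.99 (0.71 ± 0.40, adjusted p = 0.00788, at least 1.31-fold higher). Stfa2l1 was above background on no array, and so were Csta1, Csta2 and Cstdc6. Cstb, a stefin made in most cells and encoded on chromosome 10, was bright in both genotypes and had a ratio of -0.09 ± 0.18.

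**Figure D2:**
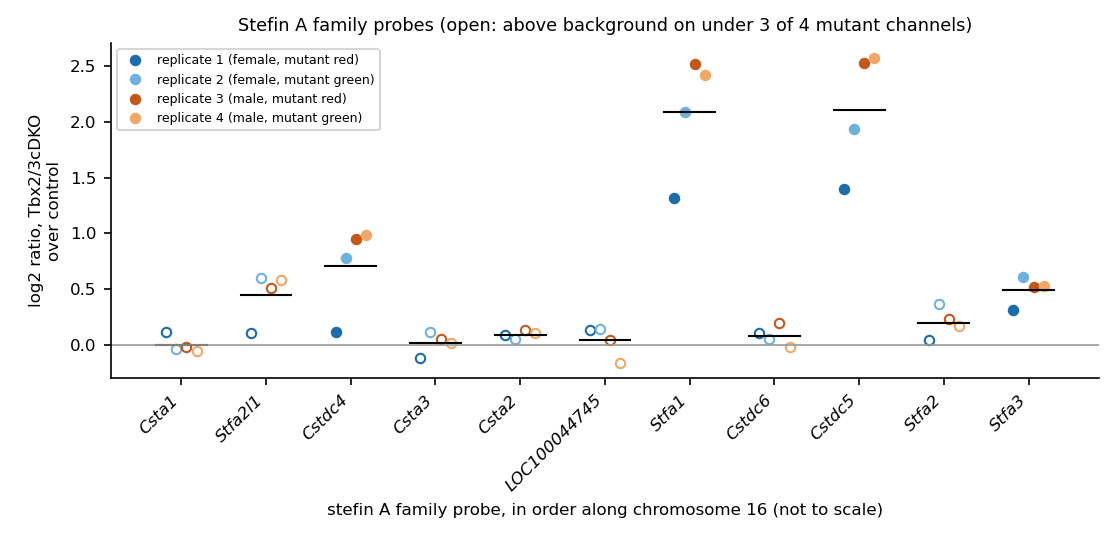
Log2 ratio of Tbx2/3cDKO over control (vertical axis) on each array for the stefin A family probes, placed in their order along chromosome 16 (horizontal axis, not to scale). Bars are means, and open points mark probes above background on under 3 of 4 mutant RNAs; Stfa1 and Cstdc5 stand above 1.3 on all arrays, while the dim probes lie near 0 or below 1.

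The promoters of Stfa1, Stfa3 and Cstdc5 were also alike, in the RefSeq promoter table of build GRCm38.p6. Aligned with gaps over the bases before the start, Stfa1 and Cstdc5 matched at 220 of 229 aligned bases (96.1%) and Stfa1 and Stfa3 at 209 of 246 (85.0%). The last 100 bases before each start are shown for these 3 genes, all higher in the mutant; capitals mark GATAAG, letters that GATA factors of blood cells can bind.
Stfa1, chr16:36277048-36277147, plus strand: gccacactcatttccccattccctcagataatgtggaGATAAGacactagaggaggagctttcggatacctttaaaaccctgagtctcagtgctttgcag
Stfa3, chr16:36455393-36455492, minus strand: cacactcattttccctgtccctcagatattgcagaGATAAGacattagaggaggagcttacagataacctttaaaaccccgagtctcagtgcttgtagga
Cstdc5, chr16:36367571-36367670, minus strand: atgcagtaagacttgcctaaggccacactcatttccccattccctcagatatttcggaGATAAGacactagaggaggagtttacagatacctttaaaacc
The first base of GATAAG stood 63, 65 and 42 bases before the start. The promoter of Cstdc4, which was higher too, held these letters 0 times. The letters were searched on both strands of 300-base windows and were found in 7.44% of 32851 promoters of all genes. A match of letters describes the sequence and shows no binding.

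Both platelet chemokine genes were higher in the mutant, and unlike the calgranulins both were detected in every control RNA. Pf4, platelet factor 4, had levels of 13.17, 13.12, 13.24 and 13.44 in the mutant, against 11.76, 11.83, 11.83 and 11.78 in the control. The 4 RNAs of each genotype were close together and the genotypes far apart. The ratio was 1.44 ± 0.16 (SE 0.07, adjusted p = 4.39e-05), a 2.71-fold difference. Ppbp, pro-platelet basic protein, whose probe lies 3.2 kb from that of Pf4 on chromosome 5, had levels of 9.82, 9.62, 9.86 and 9.91 in the mutant and 8.65, 8.46, 8.40 and 8.54 in the control. Its 2.44-fold difference (log2 1.29 ± 0.15, adjusted p = 6.25e-05) was also present on every array, from 1.16 to 1.46. Neither value moved far under another setting, Pf4 ranging from 1.35 to 1.53 and Ppbp from 1.22 to 1.48.

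Most other megakaryocyte and platelet genes were higher too, with smaller ratios. Of 14 on a list that holds none of the members, all were tested, 11 were higher, 0 were lower and the median log2 ratio was 0.43. This list too was chosen with earlier results of these data known, so it is no independent check. The adjusted p was smallest for the platelet receptor subunit Gp9, at 0.96 ± 0.05 (adjusted p = 5.53e-05), for Treml1, a platelet receptor, at 0.87 ± 0.10, and for the integrin subunit Itgb3, at 0.87 ± 0.17.

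The neutrophil granule genes were divided. Of the 7, 2 were higher (Mpo and Camp), 3 were tested and did not pass (Elane, Prtn3 and Ctsg), and 2 (Ltf and Ngp) were above background on no array. Mpo, myeloperoxidase, had levels of 9.48, 9.56, 9.20 and 9.61 in the mutant and 8.58, 8.26, 8.31 and 8.18 in the control. Every mutant RNA lay above every control RNA, with a ratio of 1.13 ± 0.28 (SE 0.05, adjusted p = 3.33e-05), a 2.19-fold difference. A second Mpo probe gave 0.94 ± 0.17.

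The serine proteases stored in the same granules did not follow Mpo. Elane, neutrophil elastase, had levels of 9.25, 9.06, 8.95 and 8.90 in the mutant and 9.20, 9.11, 8.99 and 8.85 in the control. Its mutant and control levels were nearly equal array by array, with a ratio of 0.00 ± 0.05 (adjusted p = 0.968). Prtn3, proteinase 3, had levels of 9.59, 9.77, 9.63 and 9.69 in the mutant and 9.54, 9.66, 9.72 and 9.53 in the control, with a ratio of 0.06 ± 0.11 (adjusted p = 0.457). Ctsg, cathepsin G, was dim, above background on 3 arrays in each genotype, and had a ratio of -0.08 ± 0.16 (adjusted p = 0.447). Whether the ratio of Mpo differed from those of these genes was not tested, but their arrays did not overlap: Mpo lay between 0.89 and 1.43, and the 3 proteases between -0.27 and 0.16.

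Camp, a cathelicidin of the later granules, was above background on all mutant arrays and on no control array. Its levels were 7.09, 7.04, 7.20 and 7.20 in the mutant and 6.80, 6.82, 6.80 and 6.63 in the control, so near background throughout. The ratio was 0.37 ± 0.15 (adjusted p = 0.00954), at least 1.27-fold higher; it was 1.26 in the scanner software's ratios, and without replicate 3 the adjusted p was 0.0652. A second Camp probe was above background on no array.

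The granule genes Mpo, Elane and Prtn3 share the letters GAGGAAG, which the myeloid factor PU.1 and other Ets factors can bind, in the window before their starts. The stretches below, from the RefSeq promoter table (GRCm38.p6), are shown because Mpo passed the test and the other 2 did not, while all have these letters, in capitals. The first capital stands 224 bases before the start of Mpo, 85 before that of Elane and 95 before that of Prtn3. Mpo has the letters once more, farther from its start, where the stretch shows only their last bases.
Mpo, chr11:87793538-87793597, plus strand: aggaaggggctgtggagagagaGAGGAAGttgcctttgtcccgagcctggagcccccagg
Elane, chr10:79886205-79886264, plus strand: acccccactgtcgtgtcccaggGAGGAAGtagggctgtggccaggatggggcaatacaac
Prtn3, chr10:79879550-79879609, plus strand: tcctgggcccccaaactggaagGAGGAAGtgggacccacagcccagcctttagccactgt
Of the 43 members, 35 had a promoter in that table, 40 promoters in all. GAGGAAG was found on either strand in 17 of the 40 (42.5%), against 13.6% of all promoters, and GATAAG in 6 (15%), against 7.44%. The T-box letters AGGTGTGA were found in 0 of the 40, against 1.28% of all promoters, which says only that these letters are not in these windows. The motifs were chosen after the sequences had been read.

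**Figure D3:**
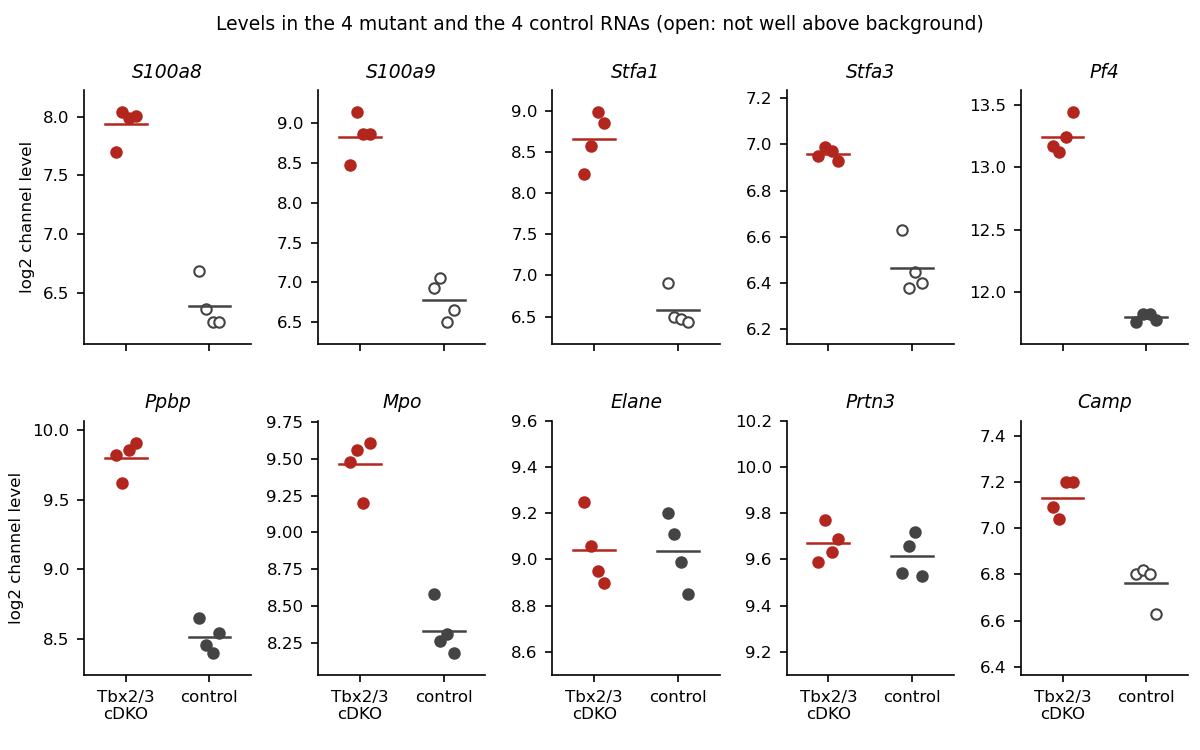
Log2 level (vertical axes, each on its own range) of 10 calgranulin, stefin, platelet and granule genes in the 4 Tbx2/3cDKO RNAs (left in each panel) and the 4 control RNAs (right), with a point for each RNA, a bar for the mean and open points for RNAs not well above background. The genotypes are apart for Pf4, Ppbp, Mpo and the calgranulins and overlap for Elane and Prtn3.

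Most of the genes expressed by leukocytes in general were also higher, by less than the platelet chemokine genes Pf4 and Ppbp. Of 14 listed, 13 had a probe and 12 were tested; 9 were higher, 0 were lower, and the median log2 ratio was 0.41. Plek, pleckstrin, a kinase substrate of platelets and leukocytes, had levels of 8.70, 8.41, 8.80 and 9.0 in the mutant and 7.90, 7.83, 7.76 and 7.78 in the control. The genotypes did not overlap, and the ratio of 0.91 ± 0.28 (adjusted p = 0.00127) was the highest of the class, a 1.88-fold difference. Lcp1, an actin bundler of leukocytes, had levels of 10.45, 10.70, 10.83 and 11.18 in the mutant and 9.92, 10.11, 10.21 and 10.20 in the control. Each mutant RNA was above each control RNA, by 0.68 ± 0.20 on average (adjusted p = 0.000894), and a second probe gave 0.52.

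The signalling adaptors of myeloid cells were next. Fcer1g, the gamma chain of Fc receptors, had levels of 10.56, 10.82, 10.76 and 10.76 in the mutant and 10.19, 10.38, 10.22 and 10.18 in the control (ratio 0.49 ± 0.09, adjusted p = 0.00122). Tyrobp, the adaptor of receptors such as Trem2, had levels of 9.91, 10.20, 10.10 and 10.32 in the mutant and 9.56, 9.82, 9.70 and 9.60 in the control (0.46 ± 0.18, adjusted p = 0.0033). For both genes the lowest mutant RNA was above the highest control RNA, and the largest ratio was on replicate 4.

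Rac2, a GTPase of blood cells, was printed in 10 spots on each array, so its precision within an array is known. Its levels were 8.67, 8.77, 8.74 and 8.97 in the mutant and 8.23, 8.42, 8.31 and 8.40 in the control, with no overlap. The ratio was 0.45 ± 0.09 (adjusted p = 0.00173), and the SD between the spots of 1 array was 0.045 to 0.0807. Vav1, a guanine exchange factor of blood cells, had levels of 7.91, 8.05, 8.06 and 8.16 in the mutant and 7.53, 7.62, 7.73 and 7.61 in the control (0.42 ± 0.10, adjusted p = 0.00157). Cd53, a tetraspanin of leukocytes, had levels of 7.56, 7.48, 7.54 and 7.70 in the mutant and 7.08, 7.21, 7.16 and 7.26 in the control (0.39 ± 0.09, adjusted p = 0.00289). The genotypes did not overlap for either gene.

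At the edge of the threshold were the integrin subunit Itgb2 and Coro1a, an actin regulator. Itgb2 had levels of 7.52, 7.76, 7.55 and 7.66 in the mutant and 7.38, 7.62, 7.33 and 7.46 in the control, a ratio of 0.18 ± 0.04 (adjusted p = 0.0449). Coro1a had levels of 11.71, 11.76, 11.61 and 11.68 in the mutant and 11.56, 11.58, 11.49 and 11.46 in the control, a ratio of 0.17 ± 0.04 (adjusted p = 0.046). Both ratios were positive on all arrays, the levels of Itgb2 overlapped, and with any single array left out both missed the threshold, with adjusted p values of up to 0.247 for Itgb2 and 0.203 for Coro1a. Hcls1, an adaptor of blood cells, fell just short at 0.17 ± 0.09 (adjusted p = 0.0548), with levels of 8.12 to 8.21 in the mutant and 7.90 to 8.08 in the control.

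Ptprc, which encodes the pan-leukocyte antigen CD45, was above background on 3 mutant arrays and on no control array, yet its ratios of -0.23, 0.24, 0.08 and 0.52 had both signs (adjusted p = 0.196). Its levels were 6.69, 7.10, 7.02 and 7.21 in the mutant and 6.92, 6.86, 6.93 and 6.70 in the control, so they overlapped, and the bound taken as for S100a9 was 1.11-fold. Itgam, the CD11b integrin subunit of myeloid cells, had 1 bright probe, with a ratio of 0.04 ± 0.28 (adjusted p = 0.828), and 2 other probes that were above background on no array. The bright probe, at chr7:135261755-135261814 (mm9, plus strand), begins with a repeat of CA, in capitals below, which is the reason it is shown.
Itgam: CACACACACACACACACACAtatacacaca
Transcripts of many genes hold such repeats, so its signal cannot be assigned to Itgam.

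Most macrophage genes rose too, and 1 fell. Of 15 listed, 14 were tested; 10 were higher, 1 was lower and 3 did not pass, with a median log2 ratio of 0.36. All 14 were above background in both genotypes, so none entered through the mutant alone. The 4 mutant levels lay wholly above the control ones for 4 of them, and those of Cd14 wholly below.

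Csf1r, the receptor on which macrophages depend, had levels of 10.48, 10.82, 10.76 and 10.89 in the mutant and 10.05, 10.15, 10.15 and 10.18 in the control. The genotypes did not overlap, and the ratio of 0.61 ± 0.12 (SE 0.05, adjusted p = 0.000424) is a 1.53-fold difference. Its other 2 probes, which were dimmer, gave 0.31 (adjusted p = 0.0223) and 0.15 (adjusted p = 0.0991), and the mean of its probes gave 0.36. Cx3cr1, the fractalkine receptor, had levels of 9.06, 9.46, 9.60 and 9.99 in the mutant and 8.95, 8.86, 8.79 and 9.16 in the control. The genotypes overlapped, since replicate 1 differed by 0.11 and the others by 0.61 to 0.83 (mean 0.59 ± 0.33, adjusted p = 0.00995), and a second probe gave 0.27. Emr1, an adhesion receptor that marks mouse macrophages, had levels of 7.78, 7.94, 8.15 and 8.23 in the mutant and 7.42, 7.69, 7.66 and 7.59 in the control. These did not overlap, and the ratio was 0.44 ± 0.17 (adjusted p = 0.00628). A second Emr1 probe, nearly as bright, gave 0.30 (limma adjusted p = 0.0189), and its levels overlapped between the genotypes.

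The lysozyme genes Lyz1 and Lyz2 lie 5.6 kb apart on chromosome 10 and encode near-identical enzymes of myeloid cells. Lyz1 had levels of 7.97, 8.53, 8.25 and 8.66 in the mutant and 7.64, 7.60, 7.54 and 7.77 in the control (0.72 ± 0.27, adjusted p = 0.000674). Lyz2 had levels of 8.21, 8.75, 8.44 and 8.93 in the mutant and 7.73, 7.97, 7.75 and 8.27 in the control (0.65 ± 0.13, adjusted p = 0.000439). Lyz1 separated the genotypes, while the lowest mutant level of Lyz2 was under the highest control level. At their best alignment without gaps, their probes matched at 19 of 42 bases (45.2%), with no shared run over 6 bases. The probes were compared only with each other, so whether each also binds transcripts of the other gene was not tested.

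The 3 chains of complement C1q, encoded within 15.8 kb on chromosome 4, did not all pass. C1qb had levels of 9.42, 9.56, 9.53 and 9.59 in the mutant and 8.88, 9.18, 9.26 and 9.28 in the control (0.37 ± 0.12, adjusted p = 0.00591). C1qc had levels of 9.33, 9.68, 9.63 and 9.81 in the mutant and 8.99, 9.31, 9.30 and 9.35 in the control (0.37 ± 0.06, adjusted p = 0.00226). C1qb separated the genotypes, and C1qc was positive on every array although its levels overlapped. C1qa had ratios of -0.10, 0.23, 0.30 and 0.21 (adjusted p = 0.168), so replicate 1 differed in sign from the rest.

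Fcgr3, a low-affinity IgG receptor, had levels of 9.20, 9.58, 9.41 and 9.82 in the mutant and 9.0, 9.02, 9.09 and 9.45 in the control (0.36 ± 0.15, adjusted p = 0.00427). F13a1, a clotting factor chain found in macrophages and platelets, had levels of 8.49, 8.67, 8.89 and 9.26 in the mutant and 8.29, 8.53, 8.36 and 8.71 in the control (0.35 ± 0.21, adjusted p = 0.0267). The levels of both overlapped between the genotypes, and each ratio was positive. Aif1, a calcium-binding protein of macrophages, had levels of 8.40, 8.68, 8.63 and 8.90 in the mutant and 8.23, 8.43, 8.37 and 8.38 in the control (0.30 ± 0.15, adjusted p = 0.0148). F13a1 and Aif1 lost their calls in the scanner software's ratios, at adjusted p values of 0.0804 and 0.0528, and without replicate 3, at 0.153 and 0.0952. The mannose receptor Mrc1, at 0.16 ± 0.17 (adjusted p = 0.127), and the lysosomal protein Cd68, at 0.06 ± 0.09 (adjusted p = 0.516), did not pass.

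Cd14, the lipopolysaccharide co-receptor of monocytes and macrophages, was the only member that fell. Its levels were 7.27, 7.42, 7.33 and 7.65 in the mutant and 7.86, 7.79, 7.89 and 7.93 in the control. Each mutant RNA was below each control RNA. The ratio of -0.45 ± 0.15 (adjusted p = 0.00101) is a 1.37-fold difference, and the call held in all 13 alternative settings. The cells in which Cd14 was transcribed cannot be told from these data.

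Of the members without a test, Cd163, a scavenger receptor of macrophages, Laptm5, a lysosomal protein of leukocytes, and the granule genes Ltf, lactoferrin, and Ngp were above background on no array of either genotype. Spi1, which encodes PU.1, had no probe under that name. A probe under its older symbol, Sfpi1, was above background on 2 mutant arrays and 1 control array and had ratios of 0.05, 0.11, -0.11 and 0.16. It is left out of all counts.

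Most of the 31 members detected in both genotypes had positive ratios on each array, and replicate 4 had the highest median. Their ratios were positive for 28, 27, 27 and 28 of 31 on replicates 1 to 4, against 49.3%, 51.6%, 51.4% and 51.5% of all genes detected in both, and their median ratios were 0.33, 0.36, 0.33 and 0.52. Among the classes, the median of the calgranulin and stefin genes was lowest on replicate 1, at 1.17 against 1.88 to 2.05 on the others, and that of the macrophage genes was highest on replicate 4, at 0.50 against 0.20 to 0.32.

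The ratios of male and female embryos were compared in an interaction term. Of the 37 members, 0 had an adjusted p under 0.05 in limma, against 0.0109% of all genes, and the smallest was 0.158. At an unadjusted limma p under 0.05 there were 10 of the 37 members, and 2859 of the 18408 genes tested. All 10 had a larger ratio in the males than in the females. The fit left 1 residual degree of freedom, so a p that misses the threshold does not show that the sexes were alike.

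Genes of other cell types were read beside the members, in lists that hold none of them; Tal1 stands in both the erythroid and the blood progenitor list. Among 24 other macrophage genes, 13 were tested, 9 were higher and 0 were lower, with a median log2 ratio of 0.29. Their summed level was 14.53 to 14.67 in the mutant and 14.30 to 14.40 in the control, on the log2 scale. The adjusted p was smallest for the protease Ctss, at 0.81 ± 0.18 (adjusted p = 0.000378), the transcription factor Maf, at 0.58 ± 0.10, and the lipid carrier Apoe, at 0.32 ± 0.06. Of 17 other neutrophil and granulocyte genes, 16 had a probe and 3 were tested, of which 0 were higher and 1 was lower: Padi4, which citrullinates histones in neutrophils, at -0.49 ± 0.31 (adjusted p = 0.0179). The defining neutrophil gene Ly6g had no probe under that name, and Fcnb, Mmp8 and Cxcr2 were not bright enough to be tested.

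The members did not rise alone. Of 15 erythroid genes, 14 were higher and 0 lower, with a median of 1.05, and their summed level was 20.04 to 20.16 in the mutant and 18.48 to 19.12 in the control. The embryonic globin Hbb-bh1 was at 1.45 ± 0.25 (adjusted p = 1.28e-05), Hbb-y at 1.29 ± 0.47 and Hba-a1 at 1.34 ± 0.28. Of 13 endothelial genes tested, 13 were higher, with a median of 0.66 and a summed level of 15.09 to 15.25 in the mutant and 14.54 to 14.76 in the control. Blood progenitor genes were higher in 6 of 7 cases, with a median of 0.58, among them Tal1 at 0.97 and Cd34 at 0.88, while Meis1 was lower, at -0.50. The megakaryocyte and platelet list had a summed level of 13.36 to 13.53 in the mutant and 12.91 to 13 in the control.

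The lists of other cell types differed from these and from each other. Of 12 otic epithelium genes, 1 was higher and 9 were lower, with a median of -0.34; their summed level was 17.13 to 17.33 in the mutant and 17.92 to 18.06 in the control, and Oc90, an otolith protein gene, was at -1.83 ± 0.24. Of 5 lymphoid genes tested among 13, 0 passed in either direction (limma), with a median of 0.00, and Cd79a and Il7r were not bright enough to be tested. Of 8 mast cell and basophil genes, 2 were tested, 1 was higher and 0 were lower, with a median of 0.51. Kit, which blood progenitors and other cells also express, was at 1.11 ± 0.19. The other gene tested, Tpsb2, did not pass, at -0.10 ± 0.12 (limma adjusted p = 0.209). Cpa3, Cma1 and Mcpt4 were not bright enough to be tested. The part of the blood, vessel and epithelial genes in the shift of the members was not tested.

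Factors that attract or maintain myeloid cells were mixed. Of 17 listed, 9 were tested, 3 were higher and 1 was lower, with a median of 0.00. Cxcl12, a chemokine that holds blood progenitors and leukocytes in place, was at 1.53 ± 0.06 (adjusted p = 1.19e-05), and Csf1, the ligand of Csf1r, at 0.20 ± 0.04 (adjusted p = 0.0245). Mif, the macrophage migration inhibitory factor, was lower, at -0.42 ± 0.15 (adjusted p = 0.00144). Il34, the other ligand of Csf1r, and the neutrophil growth factor Csf3 were not bright enough to be tested.

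**Figure D4:**
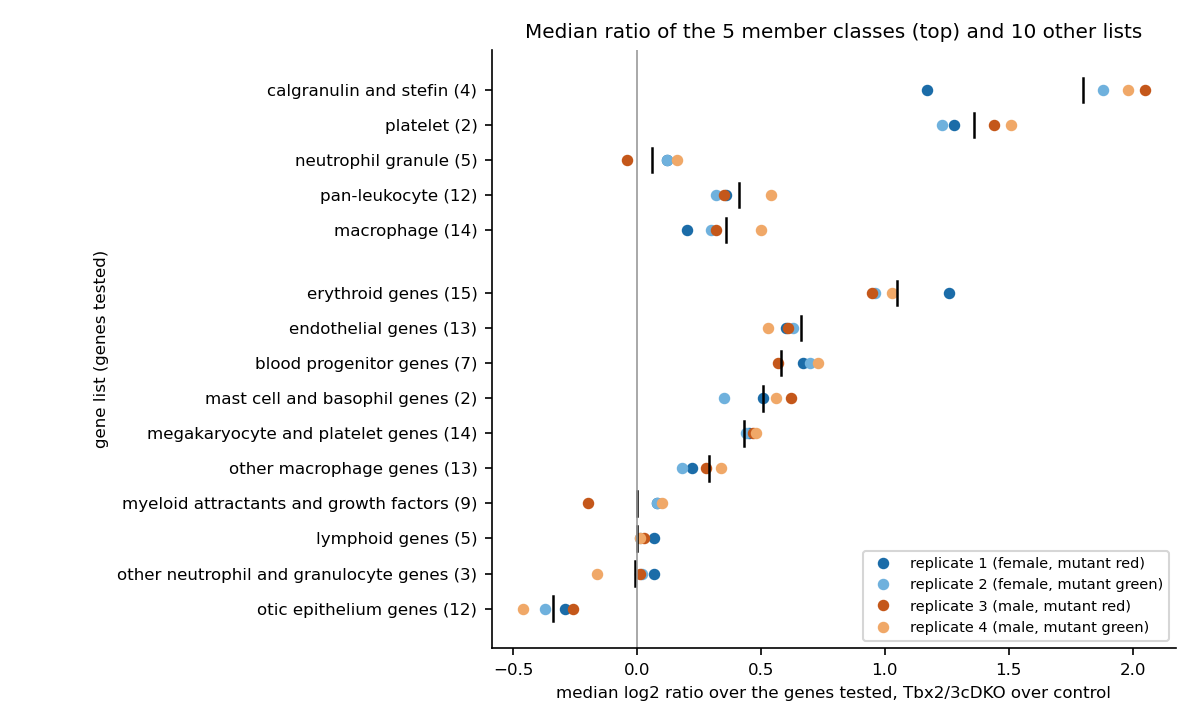
Median log2 ratio of Tbx2/3cDKO over control (horizontal axis) for the 5 classes of members at the top and 10 other gene lists below (vertical axis, with the number of genes tested), with 1 point per array and a bar for the median of the fitted ratios. The calgranulin and stefin class reaches 1.80, the platelet class of Pf4 and Ppbp 1.36 and erythroid genes 1.05. The other megakaryocyte and platelet genes are at 0.43. The neutrophil granule and lymphoid genes lie near 0 and otic epithelium genes below 0.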

How the data were processed

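Spot and local background intensities of 4 Agilent 2-colour arrays came from Agilent Feature Extraction, version 10.7.3.1 per the file headers and also the submitters' processing notes. The deposited files also hold the scanner software's log10 ratios of red over green and its flags on brightness, uniformity and saturation, per the file headers. The authors' deposited value table holds other values: signed fold ratios of mutant over control; as log2, between 90.8% and 93.3% of them lay within 0.001 of the scanner ratios turned to mutant over control, each column's median was 1, and what was done to the rest is unknown. The mutant RNA was red on replicates 1 and 3 and green on replicates 2 and 4. The arrays shared 1 slide, which leaves no slide batch to test.

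Mean signals were background-corrected by normexp (offset 50) and normalized by loess within arrays in limma 3.58.1 (with data.table at version 1.17.8 and statmod 1.5.0, under R 4.3.3), with control spots at weight 0. Non-uniform spots, 21 to 32 an array, were dropped, and 0 were saturated. Channel levels were taken after Aquantile normalization. Probes needed a signal well above background on 3 or more arrays in 1 genotype (23202 probes), and the brightest kept probe stood for a gene. Of the genes, 21 lacked a value on an array and were left out. Ratios were fitted with lmFit and eBayes (genotype and dye terms, prior degrees of freedom 4.59, residual 2), with Benjamini-Hochberg adjustment over 18408 genes. Across probes, ratios correlated between arrays with r from 0.643 to 0.849. SDs, taken over the 4 arrays, hold the dye effect too. Steps were tested on simulated data.

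Probe coordinates are those of the files (mm9). Names other than the members' came from RefSeq (GRCm38.p6), by accession for 26412 probes, symbol for 3854 and synonym for 735. Members are named as in the files; those called, bounded or among the calgranulin, stefin and platelet genes are given array by array, and up to 3 genes past the threshold are named from each other list. Further genes of those lists were chosen after their values were seen. The members, classes and lists were chosen with earlier results of these data known. Figures were drawn with matplotlib 3.10.9 and pandas 2.3.3 under Python 3.11.15.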

Additional observations from a re-analysis of the deposited data

Results flagged for a closer look

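On 3 occasions 1 of the 4 arrays stood far from the others in a member's log2 ratio, by Dixon's test at its critical value for 4 samples; chance marks about 1 in 20 such groups, and 37 genes were examined. S100a8 had 1.01 on replicate 1 and 1.68 to 1.76 on the others, a gap of 0.889 of the whole range. Tyrobp had 0.72 on replicate 4 and 0.34 to 0.40 on the others, a gap of 0.852 of the range. Cd68 had -0.07 on replicate 2 and 0.09 to 0.11 on the others, a gap of 0.873. The calls of S100a8 and Tyrobp did not rest on those arrays, since neither was lost in any setting in which the gene could be tested.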

How the results depend on the processing

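The count of members higher in the mutant was 27 and lay between 22 and 30 over all alternatives (22 to 25 with an array left out), and 1 member, Cd14, was lower in each. Macrophage and general leukocyte members gave 19 (15 to 22). The granule, calgranulin, stefin and platelet members gave 8, with 7 to 8 when an array was left out, but 3 when a probe had to be above background on all 4 arrays in both genotypes, since that filter leaves out genes not detected in the control. Over all genes, 4345 were called, 2582 to 4272 with an array left out (2810 without replicate 1, 2582 without replicate 3), 3465 with median centring, and 6061 with a sex term. Members detected were 37 in the mutant (35 to 39 under other flags) and 31 in the control (30 to 36). Members with a sex difference were 0, but 4 with median centring (Stfa1, S100a9, Cx3cr1 and Plek), all with larger ratios in the males. With median centring 555 of all genes were called, and the cause was not tested. The sign changed for 2 genes that passed in no setting. Elane was at -0.04 in the scanner software's ratios and in the series table and between -0.02 and 0.03 with an array left out, and Itgam was between -0.11 and 0.19 with an array left out. Calls of Itgb2 were lost in 6 settings and of Coro1a in 8, and Aif1, F13a1 and Camp lost theirs in 4, 4 and 1. Calls were gained by Ptprc in 3 settings, by Hcls1 in 3 and by Mrc1 in 1. Every other member's call held in all settings in which it was tested. The pairing of the 2 RNAs on an array is part of every ratio, and a fit of the separate channels gave 28 higher members. Dim probes limit the sizes: the ratios of the calgranulins, stefins and Camp against a control not well above background differed between the processing of the scanner software and normexp with loess. No setting changed the background correction alone.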
